A study of Homo sapiens and Mus musculus with 21 samples.

Results

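H2731 is a human pleural mesothelioma cell line whose BAP1 gene is labelled as mutated, and the data described here are its response to GSK126, an inhibitor of the histone methyltransferase EZH2. The members are all genes of the drug count table, compared between the H2731 libraries with GSK126 and those with the vehicle DMSO, 2 libraries each, so 4 of the 21 libraries of the series. The other human line with the drug, H2810, is labelled BAP1 wildtype and also has 2 DMSO and 2 GSK126 libraries. The remaining 13 libraries, of mouse mesothelioma cells and of human lines with hairpins, were not used. No dose or treatment time is given in the sources used here, and each genotype is represented by a single line, so that BAP1 status and any other difference between the lines cannot be told apart. The labels do not say that replicates came from separate cultures, so p-values measure the spread between these libraries, which may be technical.

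EZH2 is the catalytic subunit of Polycomb repressive complex 2 (PRC2), which methylates lysine 27 of histone H3 at silent genes, among them many developmental regulators. GSK126 competes with the methyl donor for EZH2, and loss of the mark allows some target genes to be transcribed. BAP1 is the catalytic subunit of a deubiquitinase (PR-DUB) that removes ubiquitin from histone H2A, the mark that Polycomb repressive complex 1 (PRC1) places, and it is among the genes most often lost in mesothelioma, a tumour of the cells lining the pleura.

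Counts per library ran from 19626997 to 22927239 in H2731, and levels are given as CPM, counts scaled to a common library size. Of 60674 genes in the table, 15999 had enough counts in the 8 drug libraries to be tested, and 159 of these had no count in any H2731 library. The square root of the common dispersion of the fit was 0.0311, so that small changes of abundant genes pass the test. BAP1 transcript was present in H2731, at 70.4 and 68.9 CPM with DMSO and 63.1 and 63.1 with GSK126, beside 140 to 148 CPM in the 4 H2810 libraries; counts per gene do not show a mutation. Of the mesothelial markers, cytokeratins were abundant (KRT8 at 1935 and 2070 CPM with DMSO), UPK3B was at 339 and 355 CPM and the transcription factor BNC1 at 152 and 153 CPM, whereas MSLN (mesothelin) stood at 10.1 and 10.9 CPM, WT1 at 4.0 and 4.61, and HP, KRT6A and UPK1B had no count in H2731. Leukocyte markers summed to 5.87 to 6.52 CPM over the 4 libraries, with 7 of 16 at 0, and endothelial markers to 25.5 to 29.5 CPM, with PECAM1, CLDN5 and EMCN at 0.

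GSK126 changed the level of 3959 genes in H2731 by edgeR's quasi-likelihood test at an adjusted p under 0.05, which is 24.7% of the genes tested. Of these, 2210 rose (13.8%) and 1749 fell (10.9%). Rises were larger: the median log2 fold change was 0.39 among genes that rose and -0.22 among those that fell. A change of at least 2-fold was seen for 202 genes that rose (1.26% of those tested) and for 44 that fell (0.275%). Of the 202, 174 were protein-coding and 22 were long noncoding RNAs. The counts depend on single libraries: without DMSO replicate 1 the test called 2619 genes, of which 1050 fell, and without GSK126 replicate 2 it called 2338, of which 846 fell. The 2 groups did not overlap for 9516 of the genes tested (59.5%) and for 3955 of the 3959 called, so separate groups do not set a called gene apart.

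The direction of the calls went with expression level. Among 2333 genes over 100 CPM, 26.6% fell and 15.7% rose, with 3 rises and 0 falls of at least 2-fold. Between 10 and 100 CPM, 18.1% of 6844 genes rose and 13.6% fell. From 1 to 10 CPM, 13.6% of 3885 genes rose and 4.48% fell, and 90 of the rises were at least 2-fold. Under 1 CPM, only 2.74% of 2778 genes rose and 0.90% fell, but these hold 71 of the rises and 22 of the falls of at least 2-fold. Gene length also went with direction: the median span of genes that rose was 70.7 kb, against 23.3 kb for genes that fell and 26.6 kb for genes not called. This order for rises held in each level class, for example 58.7 kb against 27.9 and 39.9 kb over 100 CPM. In H2810 the median spans were 45.3 kb for genes that rose and 32.7 kb for genes that fell. The part of gene length, depth or transcript processing in the calls was not tested.

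**Figure D1:**
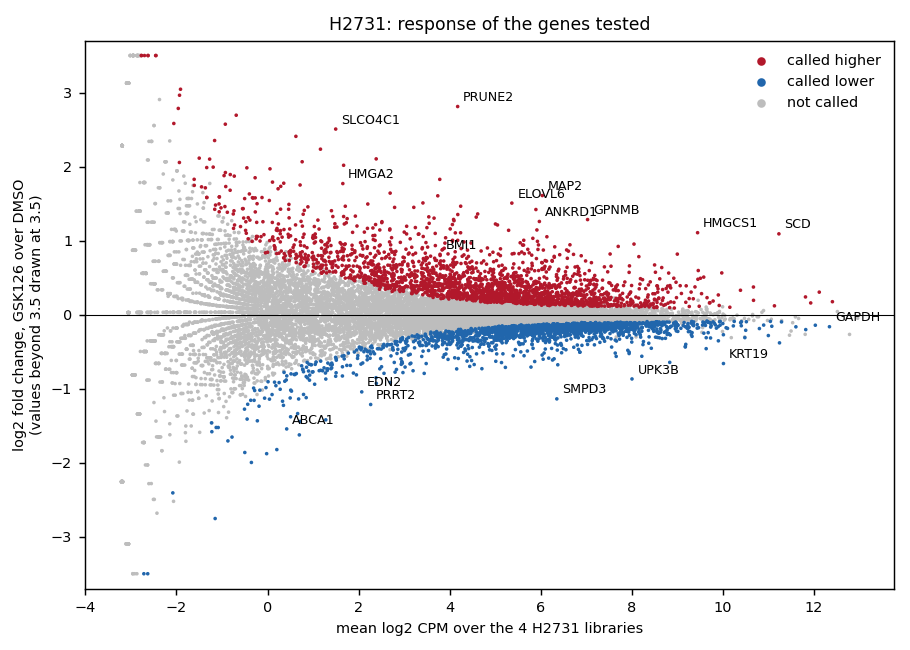
Log2 fold change with GSK126 in H2731 (vertical) against mean log2 CPM over the 4 libraries (horizontal) for the genes tested that had counts in H2731. Red points are the 2210 genes called higher and blue points the 1749 called lower; large changes lie mostly above the zero line and at low to moderate levels, and the most abundant genes changed little in size.

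PRUNE2, which encodes a protein with a CRAL-TRIO domain, showed the largest rise among called genes that averaged 1 or more on the log2 CPM scale and whose groups did not overlap. It was at 6.22 and 7.39 CPM in the DMSO libraries and 44.7 and 50.3 CPM in the GSK126 libraries. The groups were far apart, and the log2 fold change was 2.81 ± 0.09 (SE; 7.02-fold; adjusted p = 5.85e-14). The organic anion transporter gene SLCO4C1 came next, at 1.0 and 1.27 CPM against 6.24 and 6.58, a log2 fold change of 2.51 ± 0.20. The 250 bases upstream of both genes are shown because they are the starts of the 2 largest rises, from RefSeq on GRCh38.p14, 5′ to 3′ on the gene's strand, with each CG dinucleotide in capitals; PRUNE2 lies on the minus strand at chr9:76906115-76906364 and SLCO4C1 on the minus strand at chr5:102296285-102296534.
PRUNE2: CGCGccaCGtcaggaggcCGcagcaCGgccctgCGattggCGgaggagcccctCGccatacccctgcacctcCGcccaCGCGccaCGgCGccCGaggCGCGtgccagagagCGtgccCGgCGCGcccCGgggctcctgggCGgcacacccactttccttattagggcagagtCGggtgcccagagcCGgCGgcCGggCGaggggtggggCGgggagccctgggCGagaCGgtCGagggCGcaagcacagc
SLCO4C1: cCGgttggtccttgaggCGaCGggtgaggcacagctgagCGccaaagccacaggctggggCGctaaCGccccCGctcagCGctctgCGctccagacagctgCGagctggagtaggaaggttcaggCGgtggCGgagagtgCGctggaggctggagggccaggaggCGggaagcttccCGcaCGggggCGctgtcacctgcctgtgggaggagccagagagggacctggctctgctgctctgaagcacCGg
The 300-base window of PRUNE2, which adds 50 bases after the start, holds 39 CG dinucleotides and that of SLCO4C1 holds 20, beside a median of 26 over 10857 tested protein-coding genes with an entry.

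Other large rises were of secreted proteins, enzymes and cytoskeletal genes. PCSK2, a prohormone convertase, was at 1.13 and 0.81 CPM with DMSO and 4.58 and 4.70 with GSK126. HSD17B2, which inactivates oestradiol and testosterone, was at 2.35 and 2.58 against 11 and 10.2 CPM. SFRP4, a secreted Wnt antagonist, was at 1.48 and 1.57 against 5.75 and 6.58 CPM. All 3 were low in the DMSO libraries. MAP2, a microtubule-associated protein of neurons, tripled from a higher level, 37.1 and 37.9 CPM against 114 and 115 (log2 fold change 1.61 ± 0.06, adjusted p = 3.59e-13). The hair keratin KRT34 rose by a log2 fold change of 1.83, the chromatin protein HMGA2 by 1.77, FILIP1L by 1.64, the activin-binding protein FST by 1.51, the fatty acid elongase ELOVL6 by 1.51, KLHL4 by 1.49, the transcription cofactor LBH by 1.46 and the adhesion protein FLRT3 by 1.46. An unnamed long noncoding gene, ENSG00000260604, rose by 1.61.

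**Figure D2:**
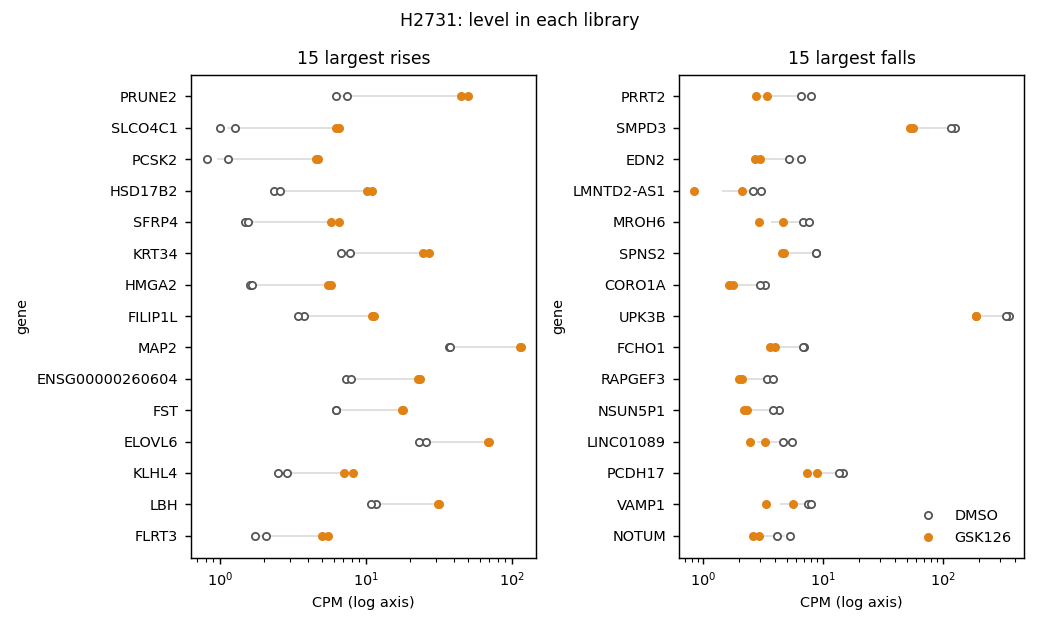
CPM in each H2731 library (log axis) for the 15 largest rises and 15 largest falls, with open circles for DMSO and filled circles for GSK126. PRUNE2 stands at 6.22 and 7.39 CPM against 44.7 and 50.3. Most of the 15 falls shown are of genes under 20 CPM, with SMPD3 and UPK3B as the abundant ones.

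Falls were smaller, and the 15 largest were mostly of low-level genes. Over all calls, the share that fell was highest among genes over 100 CPM (26.6%). The 2 abundant genes among the 15 largest falls were SMPD3, a neutral sphingomyelinase, and UPK3B, a uroplakin of mesothelial cells. SMPD3 was at 126 and 116 CPM with DMSO and 56.9 and 53.4 with GSK126, a log2 fold change of -1.14 ± 0.05 (adjusted p = 5.65e-12). UPK3B was at 355 and 339 CPM against 190 and 190, a log2 fold change of -0.87 ± 0.04 (adjusted p = 4.85e-12). For both, the GSK126 libraries lay far under the DMSO libraries. PRRT2, a synaptic membrane protein, had the largest fall by the same limits, -1.21 ± 0.16, from 6.52 and 7.90 to 3.41 and 2.77 CPM, and the vasoconstrictor peptide gene EDN2 fell by 1.04, from 6.61 and 5.16 to 2.73 and 3.01 CPM. SPNS2, a sphingosine-1-phosphate transporter, fell by 0.92, FCHO1 by 0.85, RAPGEF3 by 0.83 and PCDH17 by 0.79. The calls of CORO1A, LINC01089, LMNTD2-AS1 and NOTUM, also among the 15, were lost when single libraries were left out. The upstream bases of EDN2 and UPK3B are shown beside those of the rises, from the same source; EDN2 lies on the minus strand at chr1:41484684-41484933 and UPK3B on the plus strand at chr7:76510302-76510551.
EDN2: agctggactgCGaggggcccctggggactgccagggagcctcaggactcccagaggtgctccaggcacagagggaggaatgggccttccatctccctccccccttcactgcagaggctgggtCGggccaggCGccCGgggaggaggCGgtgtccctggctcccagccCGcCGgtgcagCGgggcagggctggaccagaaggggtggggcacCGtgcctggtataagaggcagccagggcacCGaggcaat
UPK3B: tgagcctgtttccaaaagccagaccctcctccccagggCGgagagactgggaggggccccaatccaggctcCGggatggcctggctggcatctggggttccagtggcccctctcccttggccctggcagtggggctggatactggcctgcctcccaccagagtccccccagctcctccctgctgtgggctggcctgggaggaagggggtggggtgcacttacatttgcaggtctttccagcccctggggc
The 300-base windows hold 11 CG dinucleotides for EDN2 and 2 for UPK3B. Over all protein-coding genes with an entry, the medians were close, 28 for genes that rose, 27 for genes that fell and 26 for genes not called. Of the protein-coding genes that rose at least 2-fold, 76.4% had an entry, beside 81.4% of all tested. For the 133 with an entry the median was 15, and 42.1% held under 10, beside 26 and 11.6% of all tested. PRUNE2 and SLCO4C1 both lie above that median of 15, so they do not stand for the large rises. For genes that fell at least 2-fold the median was 22, over only 17 of 25 genes. Genes without an entry may differ, and the part of expression level was not tested.

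By absolute amount, the 5 largest gains were of SCD, FTH1, FTL, SQSTM1 and HMGCS1. SCD, the stearoyl-CoA desaturase, went from 1635 and 1659 CPM to 3466 and 3552, and the ferritin heavy chain FTH1 from 4012 and 3988 to 4901 and 4975. Among the largest losses, GAPDH went from 5669 and 5318 to 4879 and 4933 CPM, the chaperone HSP90AB1 from 3933 and 3828 to 3343 and 3403, and the elongation factor EEF2 from 4598 and 4204 to 3993 and 3978. The mitochondrial gene MT-CYB was at 2743 and 2835 CPM with DMSO and 2503 and 1780 with GSK126, and its call was lost without DMSO replicate 1 (adjusted p = 0.142), DMSO replicate 2 (0.172) or GSK126 replicate 2 (0.462), by DESeq2 (0.412), by limma-voom (0.0634) and with the stricter filter (0.0539).

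Counts over 41 gene lists show where these changes fell. The sterol list was highest by net share, followed by NRF2 targets and fatty acid synthesis, and the PR-DUB complex and the mesothelial markers were lowest. These are counts to be read against the 13.8% of all genes that rose and the 10.9% that fell; no list was tested as a set. The median log2 fold change of all genes tested was -0.0015, beside which list medians are given. By DESeq2, which called 2123 genes, several list counts moved by over 1.5 times. The rises went from 6 to 3 for the BCL2 family, for Notch and Hedgehog and for immune ligands and checkpoints, from 4 to 2 for FGF ligands and receptors, from 2 to 1 for PRC2 and from 2 to 0 for proliferation. The falls went from 7 to 3 for interferon-stimulated genes and for the BCL2 family, from 7 to 4 for collagens and matrix, from 6 to 1 for proliferation, from 5 to 2 for PRC1, from 4 to 2 for NF-kB and for epithelial genes and from 4 to 1 for CDK inhibitors and p53 targets. They went from 3 to 1 for developmental transcription factors, Wnt and neuronal genes, from 2 to 1 for fatty acid synthesis, from 2 to 0 for ion channels, and from 1 to 0 for ATF4 targets and for immune ligands.

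**Figure D3:**
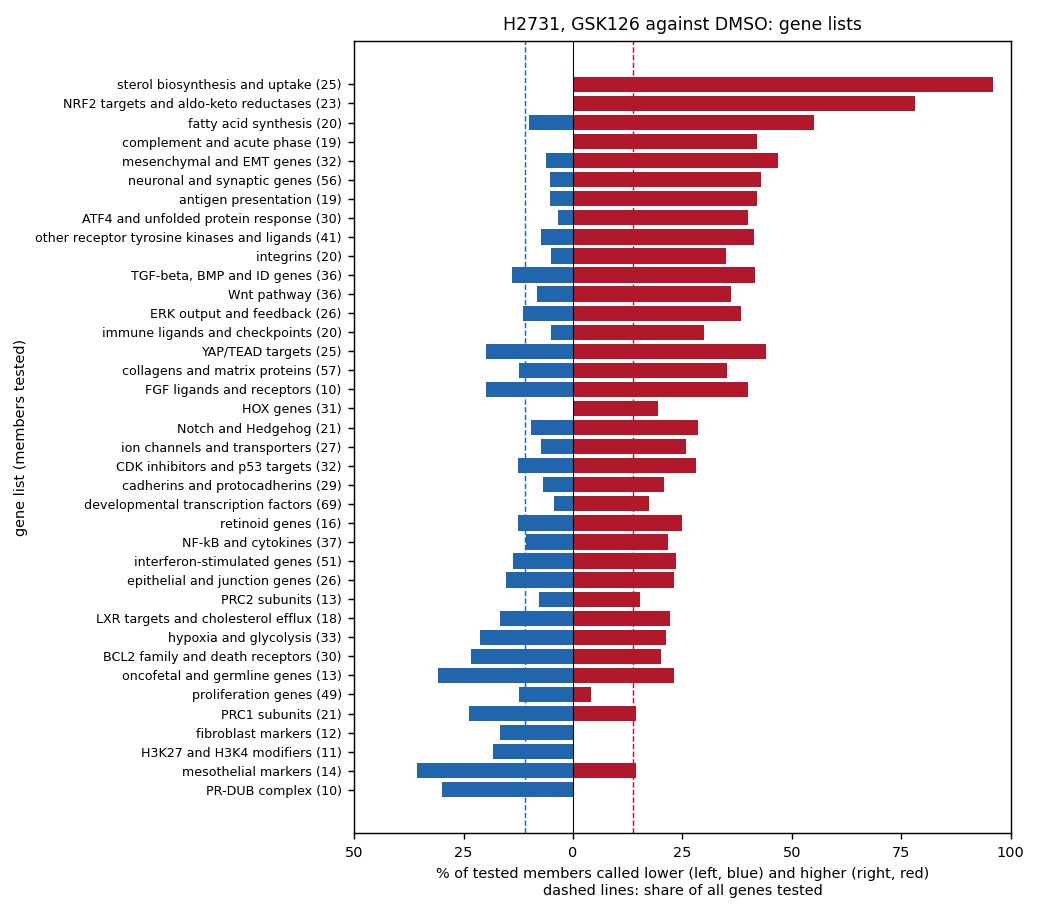
Share of tested members called higher (red, right) and lower (blue, left) in H2731 for each gene list with 10 or more tested members, in percent, ordered by the difference of the 2 shares; dashed lines mark 13.8% and 10.9% of all genes tested. The sterol list reaches 96.0% higher and 0% lower, NRF2 targets 78.3% and 0%.

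Most sterol synthesis and uptake genes rose: 24 of 25 tested members rose and 0 fell, with a median log2 fold change of 0.62, and 23 or 24 rose under each alternative that was run. Only PMVK was not called (15.8 and 14.9 CPM against 16.1 and 15.3). HMGCS1, the synthase that makes HMG-CoA, went from 470.2 and 479.8 CPM to 1019.5 and 1026.5 (log2 fold change 1.11 ± 0.03, adjusted p = 2.81e-14). INSIG1, the sterol-sensing retention factor of the pathway, went from 189 and 191 to 368 and 369. In both genes, the 2 libraries of a group differed by a few percent, and the groups were close to 2-fold apart.

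Along the pathway, the kinase MVK rose by a log2 fold change of 0.43, MVD by 0.62, IDI1 by 0.64, FDPS by 0.78, FDFT1 by 0.48, SQLE by 0.57, LSS by 0.64, CYP51A1 by 0.64, MSMO1 by 0.82, SC5D by 0.81 and DHCR7 by 0.67. STARD4, a cytosolic sterol carrier, rose by 0.94. SREBF2, the transcription factor that controls these genes, rose by 0.20, from 355 and 344 to 402 and 399 CPM. The lysosomal cholesterol exporters NPC1 and NPC2, kept in the list of cholesterol efflux, rose by 0.47 and 0.62.

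The 250 upstream bases of HMGCS1 and STARD4 are shown because these genes moved together, chosen after their values were seen. CCAAT, the box bound by the factor NF-Y, was searched on both strands and stands in capitals, as ATTGG where it lies on the other strand. HMGCS1 lies on the minus strand at chr5:43313413-43313662 and STARD4 on the minus strand at chr5:111512536-111512785 (RefSeq, GRCh38.p14).
HMGCS1: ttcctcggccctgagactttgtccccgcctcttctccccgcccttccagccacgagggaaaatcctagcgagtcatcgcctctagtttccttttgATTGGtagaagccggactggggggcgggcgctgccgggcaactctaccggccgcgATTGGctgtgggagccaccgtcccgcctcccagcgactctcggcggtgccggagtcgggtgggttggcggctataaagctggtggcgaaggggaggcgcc
STARD4: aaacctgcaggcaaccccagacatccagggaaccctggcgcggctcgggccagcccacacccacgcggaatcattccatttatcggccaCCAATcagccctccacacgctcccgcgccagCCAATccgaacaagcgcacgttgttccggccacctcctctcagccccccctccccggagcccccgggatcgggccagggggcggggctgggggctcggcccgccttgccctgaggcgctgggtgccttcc
Each holds 2 matches. At least 1 match is held by 33.0% of 27305 promoters of this length, and also by those of PRUNE2 and UPK3B printed above. The box is thus not particular to these genes, and its part in their rises was not tested. Only 18 of the 25 sterol genes, 72.0%, had an entry, so a share for the list is void.

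**Figure D4:**
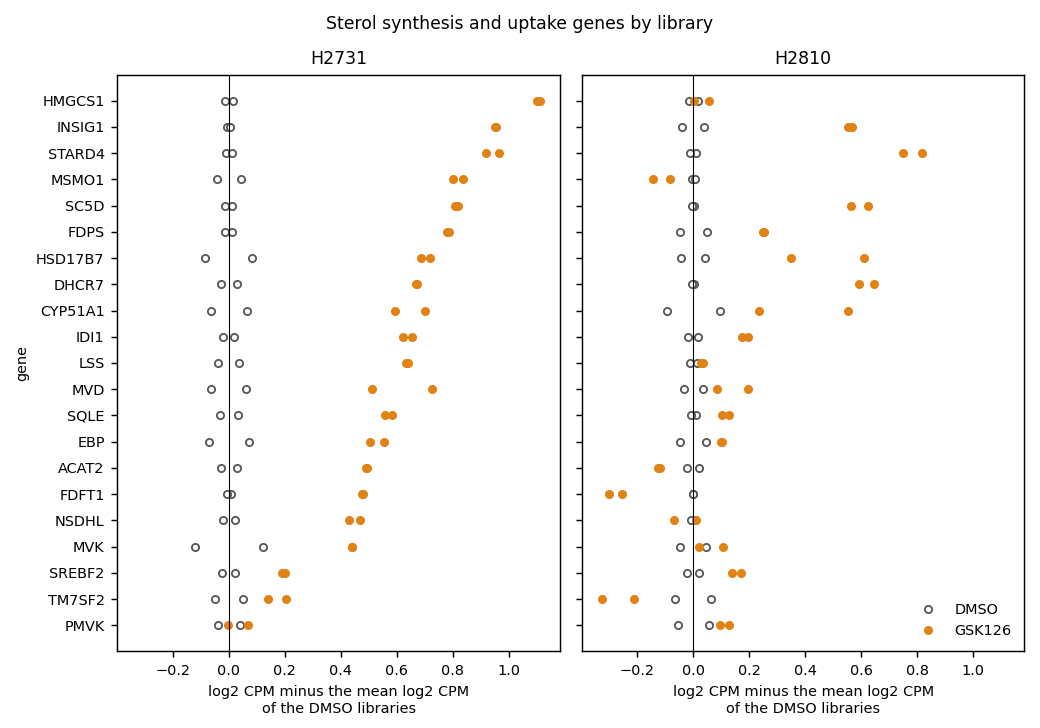
Log2 CPM of each library minus the mean of the DMSO libraries, for 21 of the 25 tested sterol genes in H2731 (left) and H2810 (right); open circles are DMSO and filled circles GSK126. In H2731 the GSK126 libraries of 20 genes lie to the right of both DMSO libraries, with HMGCS1 at a log2 fold change of 1.11; in H2810 several lie at or left of zero.

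Fatty acid synthesis genes also rose, 11 of 20 with 2 falls and a median log2 fold change of 0.37. The acetyl-CoA synthetase ACSS2 went from 37.9 and 34.7 to 96.3 and 98.3 CPM (1.42 ± 0.05), ELOVL6 from 23 and 25.9 to 68.5 and 70.1 CPM, and the acyl-CoA synthetase ACSL1 from 40.1 and 39.1 to 82.2 and 79.9 CPM. All 3 more than doubled by the fitted fold change, and their groups did not overlap. The phosphatidate phosphatase LPIN1 rose by 0.76, the desaturase FADS1 by 0.56, the synthase FASN by 0.51 and ACLY by 0.37. SREBF1, the fatty acid counterpart of SREBF2, went the other way, from 142 and 135 to 129 and 114 CPM (-0.18 ± 0.05, adjusted p = 0.0143), a call lost without DMSO replicate 1 (adjusted p = 0.149) or GSK126 replicate 2 (0.282). In this list 0 members fell without either of these libraries, and 1 without DMSO replicate 2 or GSK126 replicate 1.

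Genes of cholesterol efflux, which the liver X receptor LXR activates, were split: 4 of 18 rose and 3 fell, or 1 without GSK126 replicate 2. ABCA1, the main efflux pump to apolipoprotein A-I, was low and fell, from 1.91 and 2.33 CPM (44 and 46 counts) to 0.634 and 0.799 CPM (13 and 17 counts), a log2 fold change of -1.54 ± 0.25 (adjusted p = 0.000142). The call held under each alternative. ABCG1 was at 1.13 and 2.13 CPM against 0.829 and 0.752, a call (adjusted p = 0.0417) lost without DMSO replicate 2 (0.453), GSK126 replicate 1 (0.11) or GSK126 replicate 2 (0.182) and by limma-voom (0.094).

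NRF2 is the factor that induces antioxidant genes, and 18 of 23 tested members of its list rose and 0 fell, with a median log2 fold change of 0.39 (15 to 18 rose over the alternatives). The haem oxygenase HMOX1 went from 88.3 and 84.4 to 137 and 133 CPM (0.64 ± 0.04, adjusted p = 1.39e-09), and the glutathione synthesis subunit GCLM from 86.8 and 89.8 to 130 and 129 CPM. The aldo-keto reductases AKR1C1 and AKR1C3 rose by 0.88 and 0.67, UGDH by 0.51, the cystine importer SLC7A11 by 0.39, FTH1 by 0.30 and TXNRD1 by 0.16. NQO1, a widely used NRF2 target, was not called, at 595 and 584 against 608 and 613 CPM. Among amino acid and protein stress genes regulated by ATF4, 12 of 30 rose and 1 fell, or 0 without DMSO replicate 1 or GSK126 replicate 2, with a median of 0.10. STC2, a stanniocalcin, rose by 0.72 and the pseudokinase TRIB3 by 0.38. GPNMB, a lysosomal glycoprotein in none of the lists that was named after its value was seen, went from 83.5 and 83.8 to 198 and 209 CPM (1.28 ± 0.04, adjusted p = 3.12e-14).

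At the RNA level, members of the drug's target complex were called about as often as genes in general. EZH2 was at 81.1 and 78.7 CPM with DMSO and 78.3 and 76.6 with GSK126 (log2 fold change -0.05 ± 0.04, adjusted p = 0.501). Of 13 tested PRC2 members, 2 rose (15.4%) and 1 fell (7.69%), beside 13.8% and 10.9% of all genes tested, and the median was -0.05. The elongin-binding subunit EPOP rose from 20.7 and 21.2 to 26.2 and 25.1 CPM (0.29), RBBP4 fell by 0.18, and JARID2 rose by 0.19, a call lost when any single H2731 library was left out, which leaves 1 rise, and by DESeq2. The other core subunits, EZH1, EED, SUZ12 and RBBP7, were not called, with log2 fold changes from -0.18 to 0.02.

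Of 21 PRC1 members 3 rose (14.3%) and 5 fell (23.8%), beside 13.8% and 10.9% of all genes tested. PRC1 had fewer falls without DMSO replicate 2, GSK126 replicate 1 or GSK126 replicate 2, and 2 falls by DESeq2. Its ring subunit BMI1 went from 11 and 9.72 to 17.5 and 19 CPM (0.81 ± 0.09, adjusted p = 8.2e-07) and PCGF5 from 94.6 and 99.9 to 117 and 120 CPM (0.29). PHC2 fell by 0.17. In the PR-DUB complex 0 of 10 members rose and 3 fell, or 1 without GSK126 replicate 2: ASXL1, the partner that activates BAP1, by 0.19, OGT by 0.24, a call lost without DMSO replicate 2 or GSK126 replicate 2, and BAP1 by 0.14. The BAP1 call was lost without DMSO replicate 1, GSK126 replicate 1 or GSK126 replicate 2 (adjusted p = 0.113, 0.0902 and 0.111), by DESeq2 (0.14) and with no filter on low counts (0.0758).

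Of 31 tested HOX genes, classical PRC2 targets, 6 rose (19.4%) and 0 fell, beside 13.8% and 10.9% of all genes tested. The rises numbered 3 by DESeq2 and were also fewer without GSK126 replicate 1. Of the 31, 2 had no count in H2731, and the median log2 fold change of the others was 0.28. HOXB9 was the clearest, at 10.3 and 11.5 CPM with DMSO and 25.4 and 25.1 with GSK126 (1.22 ± 0.08, adjusted p = 9.57e-10). HOXA13 went from 4.22 and 3.19 to 6.24 and 5.78 CPM and HOXC13 from 21 and 20 to 25.6 and 27.1. No member of the HOXD cluster was called. Of 69 developmental transcription factors of other families, 12 rose and 3 fell (17.4% and 4.35%, median 0.14). RUNX2, the osteoblast regulator, went from 13.9 and 16.4 to 38.9 and 36.5 CPM (1.32 ± 0.07), the nuclear receptor NR2F1 from 3.44 and 3.29 to 7.27 and 6.86 CPM (1.07), and EBF1 from 4.52 and 4.45 to 8.39 and 9.36 CPM (0.98). Of 30 homeobox genes outside the HOX clusters 3 rose (10%) and 2 fell (6.67%), which is near the shares of all genes tested.

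Of 35591 genes of the table with 0 counts in both DMSO libraries, 4 reached 10 or more counts over the 2 GSK126 libraries: ENSG00000233539 and NAT16 with 11 each, GUCY1A1 and LINC01537 with 10 each. With an assumed 3 counts over the DMSO libraries, their folds would be 3.79 or 3.44. The genes were picked as the highest of 35591, so these folds follow in part from the selection. Conversely, 0 genes with no count in the GSK126 libraries had 10 or more with DMSO. Oncofetal and germline genes were mixed, with 3 of 13 up and 4 down, or 2 down with the stricter filter or by DESeq2. The 11 oncofetal genes among them had 3 up and 3 down, and 1 of 2 cancer-testis genes fell. HMGA2 went from 1.61 and 1.67 to 5.46 and 5.74 CPM and IGF2BP3 rose by 0.59, while HMGA1 fell by 0.35, IGF2BP2 by 0.25 and LIN28A from 1.44 and 1.27 to 0.244 and 0.423 CPM.

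Fibroblast growth factor (FGF) signalling runs from ligands through the receptors FGFR1 to FGFR4 to the ERK kinases. Of 10 tested FGF ligands, receptors and cofactors, 4 rose and 2 fell. The receptor FGFR3 fell, from 34.0 and 33.1 CPM to 25.8 and 24.1 (-0.43 ± 0.06, adjusted p = 4.54e-05), and the ligand FGF18 fell by 0.43. The ligand FGF2 went from 82.9 and 87.9 to 113 and 119 CPM (0.44 ± 0.04), and FGFBP1, which releases FGF2 from the matrix, from 0.609 and 0.607 to 3.32 and 3.20 CPM. FGFR1 was not called (178 and 172 against 172 and 166 CPM), nor was FGFR2 (1.87 and 2.58 against 1.90 and 2.26), and FGFR4 rose by 0.26, a call lost without DMSO replicate 2 or GSK126 replicate 1 and by DESeq2.

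Downstream, 10 of 26 ERK output and feedback genes rose and 3 fell, with 6 rising without DMSO replicate 1. JUN rose by 0.51 and the phosphatase DUSP4 by 0.37, while DUSP1 went from 297 and 289 to 208 and 204 CPM (-0.51) and EPHA2 fell by 0.31. Among other receptor tyrosine kinases and their ligands, 17 of 41 rose and 3 fell, with a median log2 fold change of 0.29. MET, the hepatocyte growth factor receptor, went from 151 and 147 to 230 and 238 CPM (0.65 ± 0.04), the ligand NRG1 from 43.5 and 40.8 to 71.9 and 75.5 CPM (0.80), and KITLG from 33.6 and 33.5 to 50.6 and 53.3 CPM (0.63). PDGFRB fell by 0.39 and PDGFB by 0.41.

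Mesothelial markers were called lower more often than higher, but the list median log2 fold change was only -0.02. The falls were of keratins and UPK3B, and MSLN, WT1 and BNC1 were not called. Of 14 tested mesothelial markers 5 fell (35.7%) and 2 rose, or 1 rose without DMSO replicate 1 or GSK126 replicate 2. KRT19 went from 1377 and 1224 CPM to 828 and 818 (-0.66 ± 0.05, adjusted p = 2.24e-09), KRT7 from 2345 and 2172 to 1887 and 1826 (-0.28), and KRT18 from 1636 and 1487 to 1340 and 1357 (-0.21). UPK3B is given above, and KRT8 fell by 0.14, a call lost without DMSO replicate 1 or GSK126 replicate 2. The sulfatase SULF1 went from 7.18 and 8.0 to 17.8 and 17.7 CPM (1.23), and CALB2 rose by 0.62, a call lost without DMSO replicate 1 or GSK126 replicate 2. The summed level of the mesothelial list was 7386 to 7986 CPM with DMSO and 6266 to 6360 with GSK126. That of the fibroblast list was 1057 to 1109 and 928 to 949 CPM. A few abundant genes set these sums: KRT7, KRT8, KRT18 and KRT19 for the first, FBLN1 and PDGFRB for the second. Of 12 tested fibroblast markers 0 rose and 2 fell, while the median log2 fold change of those with counts was 0.23. In such bulk libraries, fewer cells of a type and less RNA per cell cannot be told apart. The list of epithelial and junction genes had 6 of 26 up and 4 down, or 2 down without DMSO replicate 1, with TJP1 up by 0.49 and JUP and CLDN15 down by 0.37 and 0.73.

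Mesenchymal genes rose more often than they fell: 15 of 32 tested members rose and 2 fell, with a median log2 fold change of 0.28. The transcription factor SNAI2 went from 8.26 and 8.91 to 13.2 and 15.7 CPM (0.75), ZEB1 from 24.2 and 28.1 to 35.8 and 38.2 CPM (0.51) and ZEB2 from 60.6 and 61.7 to 79.6 and 80.6 CPM (0.39). All 3 are zinc-finger regulators of the epithelial to mesenchymal transition. The cadherin CDH6 rose by 0.93, fibronectin FN1 by 0.48, LOX by 0.40 and CD44 by 0.35, while the tropomyosin TPM2 fell by 0.40. Vimentin (VIM) was not called, though it was without DMSO replicate 1 and with no filter, at 1039 and 929 CPM against 1064 and 1055.

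Extracellular matrix genes divided by class. Of 33 proteoglycans and matricellular proteins 17 rose and 1 fell, with a median log2 fold change of 0.45, whereas of 24 collagens 3 rose and 6 fell, with a median of 0.09; without DMSO replicate 1 the falls of both classes together went from 7 to 4. The fibulin EFEMP1 went from 35.1 and 34.6 to 68.6 and 71.2 CPM (a log2 fold change of 1.0 ± 0.04), fibrillin FBN1 from 56.7 and 58.6 to 105 and 113 CPM (0.92 ± 0.08) and laminin LAMA1 from 44.3 and 43.6 to 70.3 and 72.0 CPM (0.69). COL6A1 fell by 0.40. Of 36 genes of the TGF-beta and BMP pathways 15 rose and 5 fell, or 8 rose by DESeq2. TGFB2, a ligand, went from 7.44 and 8.55 to 19 and 20.3 CPM (1.30 ± 0.09), its receptor TGFBR1 from 42.9 and 46.5 to 68.6 and 72.6 CPM (0.66), and the feedback gene PMEPA1 from 12.7 and 10.6 to 21.5 and 19.9 CPM (0.82). The latent-TGF-beta binding protein LTBP3 fell by 0.56 and the BMP target ID1 by 0.32.

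Targets of the YAP and TEAD factors, the output of the Hippo pathway, also rose more often than they fell, 11 against 5 of 25, and the median was 0.04. ANKRD1 went from 39.5 and 41.5 to 96.8 and 96.7 CPM (1.26 ± 0.04, adjusted p = 2.6e-13), the matricellular protein CCN2 from 68.9 and 67.4 to 107 and 101 CPM (0.61) and IGFBP3 from 58.5 and 61.0 to 101 and 105 CPM (0.79). The kinase NUAK2 fell by 0.59.

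Some genes better known from neurons rose in this mesothelioma line. Of 56 tested neuronal and synaptic genes 24 rose and 3 fell, with a median log2 fold change of 0.24. After MAP2, the neurofilament NEFL went from 11.4 and 10.4 to 26.4 and 26.4 CPM (1.27 ± 0.08), and the semaphorin receptors NRP2 and NRP1 from 13.9 and 14.3 to 27.3 and 28.3 CPM (0.98) and from 30.0 and 34.1 to 57.3 and 55.9 CPM (0.83). TUBB3 was at 2.04 and 1.82 CPM against 0.975 and 0.799, a lower call lost without DMSO replicate 1 or GSK126 replicate 2. Of 27 ion channels and transporters 7 rose, among them the sodium channel SCN9A by 0.90 and the potassium channels KCNH1 by 0.92 and KCNMA1 by 0.65; 2 fell, or 0 without DMSO replicate 1 or GSK126 replicate 2 and 1 without DMSO replicate 2 or GSK126 replicate 1.

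In the Wnt pathway 13 of 36 genes rose and 3 fell, or 1 fell without DMSO replicate 1, with a median of 0.35. The ligand WNT5B went from 7.52 and 7.79 to 14.3 and 14.1 CPM (0.89), the receptor FZD7 rose by 0.52 and the antagonist DACT1 by 1.79 from a level of 0.478 and 0.557 CPM, while the ligand WNT7B fell by 0.50. The Notch and Hedgehog list had 6 of 21 up and 2 down, with 3 up without DMSO replicate 1 or GSK126 replicate 1 and 1 down without DMSO replicate 1, GSK126 replicate 1 or GSK126 replicate 2; NOTCH1 went from 74.9 and 70.3 to 47.7 and 46.0 CPM (-0.63 ± 0.06), and the Hedgehog receptor PTCH1 rose by 0.39. Of 20 integrins 7 rose and 1 fell. ITGB8, which activates latent TGF-beta, went from 21.4 and 20.4 to 48.3 and 49.7 CPM (1.22 ± 0.06), and ITGB4 fell by 0.31, from 903 and 868 to 706 and 721 CPM. Of 10 cadherins 5 rose and 1 fell, and of 19 protocadherins 1 rose and 1 fell; the protocadherin PCDH7 rose by 0.69 and CDH24 fell by 0.63.

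Interferon-stimulated genes changed in both directions, with 12 of 51 up and 7 down and a median of 0.11. Without DMSO replicate 2, 7 rose, and the falls numbered 3 without DMSO replicate 1 or GSK126 replicate 1 and 4 without GSK126 replicate 2. HERC5 went from 8.87 and 9.41 to 14.2 and 15.3 CPM (0.69), IFIT2 from 2.44 and 2.53 to 4.34 and 4.28 CPM (0.80) and PLSCR1 from 31.4 and 30.7 to 40.4 and 41.5 CPM (0.40), whereas ISG15 went from 27.6 and 22.3 to 19.5 and 17.1 CPM (-0.46 ± 0.09). MX1 was not called, with a log2 fold change of 0.09. In antigen presentation 8 of 19 rose and 1 fell. The rises numbered 4 without DMSO replicate 1 or GSK126 replicate 1 and 3 without GSK126 replicate 2, and none fell without DMSO replicate 1. The class I chain HLA-B went from 130 and 113 to 178 and 172 CPM (0.53) and HLA-C rose by 0.24; TAP1 fell by 0.21, the call that was lost without DMSO replicate 1.

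Complement and acute phase genes had 8 of 19 up and 0 down, with 5 up without DMSO replicate 1. Membrane regulators that protect cells from complement were among the rises: CD55 went from 34.5 and 32.2 to 65.4 and 65.6 CPM (0.97 ± 0.05), and CD46 and CD59 rose by 0.27 each. The protease C1S rose by 0.49. Of 37 genes of NF-kB and cytokines 8 rose and 4 fell, the superoxide dismutase SOD2 by 0.60 and the growth factor CSF1 by 0.55 upward, TNFAIP2 by 0.56 downward. Of 20 immune ligands and checkpoints 6 rose and 1 fell, or 0 fell without DMSO replicate 1 or GSK126 replicate 2, and CD276 rose by 0.37.

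Few cell cycle genes changed in H2731. Of 49 proliferation genes 2 rose (4.08%) and 6 fell (12.2%), and the median was -0.04; without GSK126 replicate 2, 0 rose and 2 fell, without DMSO replicate 1, 1 rose and 2 fell, without DMSO replicate 2, 1 rose, and without GSK126 replicate 1, 3 fell. UHRF1, which guides maintenance DNA methylation, went from 142 and 139 to 123 and 123 CPM (-0.19). CDK inhibitors and p53 targets had 9 of 32 up and 4 down, with the falls at 2 without DMSO replicate 1 and at 1 without GSK126 replicate 1 or GSK126 replicate 2. The CDK inhibitor CDKN1A went from 72.0 and 68.2 to 90.7 and 91.4 CPM (0.38 ± 0.05), TP53INP1 rose by 0.70 and GADD45A by 0.44. In the BCL2 family and death receptors 6 of 30 rose and 7 fell, with the falls at 3 or 4 without DMSO replicate 1, GSK126 replicate 1 or GSK126 replicate 2. The pro-apoptotic HRK went from 0.957 and 0.709 to 2.49 and 3.20 CPM (1.75 ± 0.25), and the anti-apoptotic BCL2L1 fell by 0.22 and the decoy receptor TNFRSF10D by 0.61. Hypoxia and glycolysis genes split evenly, 7 up and 7 down of 33. EPAS1 rose by 0.35, while the lactate dehydrogenase LDHA fell by 0.25, the lactate exporter SLC16A3 by 0.30 and CA9 went from 2.74 and 2.33 to 0.878 and 0.987 CPM.

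Some genes that changed alike lay side by side. There were 50 runs of at least 4 neighbouring tested genes called in the same direction, 32 of rises and 18 of falls, with 218 genes in all. The longest was of 8 falls on chromosome 19 from 1009648 to 1228431 (file coordinates, which overlap the GENCODE annotation of GRCh38), from TMEM259 through CNN2, ABCA7, ARHGAP45, POLR2E, GPX4 and SBNO2 to STK11, with log2 fold changes from -0.53 to -0.15. Leaving out single libraries ended the calls of TMEM259, POLR2E and GPX4. The longest of the runs of rises had 6 genes on chromosome 7 from 116210506 to 116922049 and included TES (0.47), the caveolins CAV2 (0.48) and CAV1 (0.22), MET (0.65) and CAPZA2 (0.20). The number of such runs that neighbours would form without a shared position effect was not tested.

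H2810, the BAP1 wildtype line, was compared by testing the difference of the 2 responses, H2731 minus H2810, in the same fit; the 2 responses share no library. In H2810, 2610 genes rose (16.3%) and 2071 fell (12.9%). The response differed for 2358 genes (14.7%), more positive in H2731 for 1292 (8.08%) and more negative for 1066 (6.66%). Of the genes that rose in H2731, 922 also rose in H2810, which is 41.7% of the H2731 rises and 35.3% of those of H2810, and of those that fell, 588 also fell there (33.6% and 28.4%). Opposite calls were made for 365 genes, 236 up in H2731 and down in H2810 and 129 the other way. The difference was called for all 365. Opposite calls in the same fit make this nearly certain, so it is no separate evidence.

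Lipid genes differed between the lines, but not every list in the same way. Of 20 fatty acid synthesis genes 14 rose and 3 fell in H2810, against 11 and 2 in H2731. Their difference was higher in H2731 for 8 and lower for 3. Of 18 genes of cholesterol efflux 9 rose and 2 fell in H2810, and the difference was higher in H2731 for 2 and lower for 6. For sterol synthesis and uptake, 10 members rose and 3 fell in H2810, and the difference was called in favour of H2731 for 17 of 25 and of H2810 for 0. HMGCS1 was at 113.5 and 116 CPM in H2810 with DMSO and 115 and 119 with GSK126, and the difference of the log2 fold changes was 1.08 ± 0.05 (adjusted p = 1.77e-11). ABCA1 went the opposite way in the lines: it was at 5.42 and 5.66 CPM in H2810 with DMSO and at 28.7 and 29.2 with GSK126, and the difference was -3.93 ± 0.27 (adjusted p = 3.34e-09). SREBF1 rose in H2810 (0.81), a difference of -0.99 ± 0.07. For INSIG1 and SCD, which rose in both lines, the differences were 0.39 and 0.20, and for STARD4 the difference of 0.16 ± 0.07 was not called (adjusted p = 0.174). For NRF2 targets the difference was in favour of H2731 for 13 of 23 and of H2810 for 1, with AKR1C1 falling in H2810 by 0.64.

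Other lists differed in either direction. Of 51 interferon-stimulated genes 41 rose and 5 fell in H2810, and the difference was called lower in H2731 for 24 and higher for 4; MX1 rose by 1.27 in H2810, a difference of -1.18 ± 0.15 (adjusted p = 1.51e-05), and ISG15 differed by -1.44 ± 0.10. Of 25 replication genes 21 rose and 0 fell in H2810 against 1 and 5 in H2731, and the difference was called lower in H2731 for 20. YAP and TEAD targets had 6 rises and 13 falls in H2810, with the difference higher in H2731 for 13 of 25 and lower for 3: CCN2 fell by 0.80 there, a difference of 1.41 ± 0.05 (adjusted p = 6.6e-13), and ANKRD1 fell by 0.34, a difference of 1.60 ± 0.06. For mesenchymal genes the difference was higher in H2731 for 15 of 32 and lower for 2. Of the leading genes, PRUNE2 rose in both lines and by 1.96 ± 0.18 more in H2731 (adjusted p = 1.63e-07), KLHL4 rose in H2731 and fell by 0.67 in H2810, and GPNMB rose by 2.16 in H2810, a difference of -0.87 ± 0.06. EZH2 rose by 0.23 in H2810 and the difference was -0.28 ± 0.07 (adjusted p = 0.00989). No such comparison could be made for EDN2, CA9 or the NRF2 list member ALDH3A1, which had 0 counts in H2810. The list totals given for the differences include such genes.

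**Figure D5:**
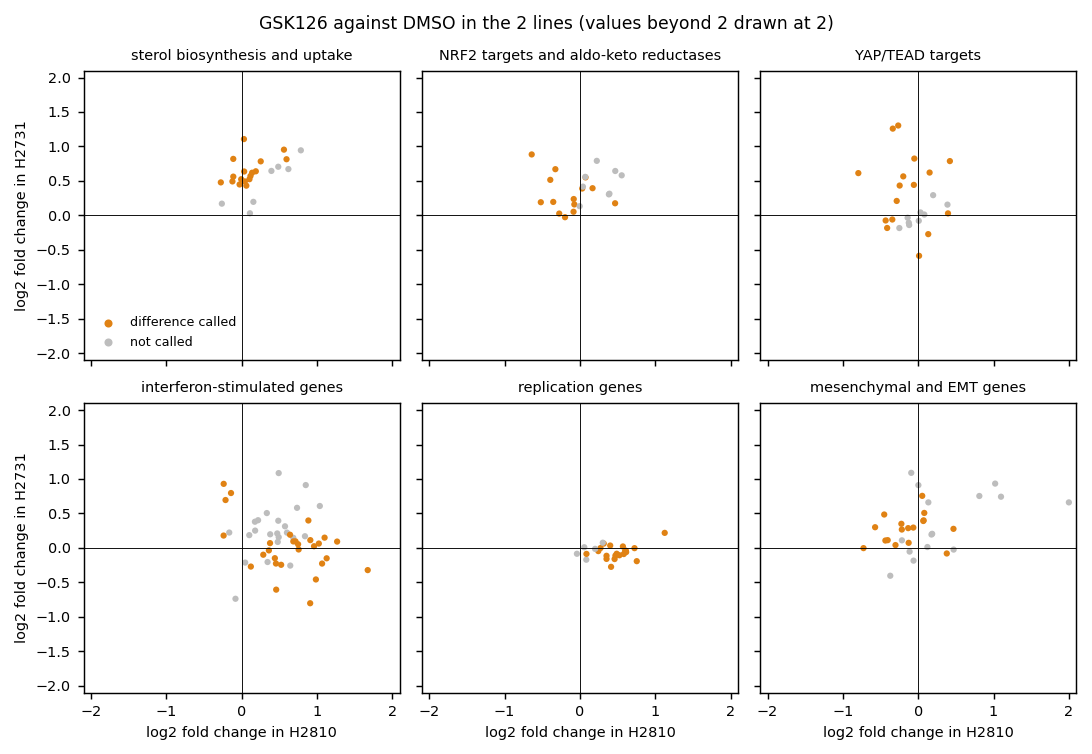
Log2 fold change with GSK126 in H2731 (vertical) against that in H2810 (horizontal) for the members of 6 gene lists that have counts in both lines; orange points are genes whose difference of responses was called. Sterol genes lie above the zero line for H2731, with 17 of 25 differences called. Interferon-stimulated and replication genes spread to the right, with 41 of 51 and 21 of 25 rising in H2810. These totals are of all tested members, drawn or not.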

How the data were processed

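Libraries of polyadenylated RNA (TruSeq mRNA kit) gave single-end reads on an Illumina HiSeq, per the labels' protocols. Per the submitters' processing notes reads were handled with HTSeq, DESeq2 and TopHat2 2.0.12 and only mouse builds are named; the human build, annotation, strand setting, drug dose and time are not given in the sources used here. The values deposited by the authors are raw counts per gene, 1 column per library, with no normalization. The depth was 19626997 to 22927239 counts in H2731 libraries.

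All 8 drug libraries were fitted as 4 groups in edgeR 4.0.16 (R 4.3.3) with filterByExpr, TMM factors, quasi-likelihood F tests and Benjamini-Hochberg adjustment over 15999 genes. CPM are of the scaled total, and the SE is the log2 fold change divided by the square root of F. The script was tested on simulated data. Replicates of a group differed by more than counting noise (chi-square per degree of freedom 1.99 to 6.16), so none was treated as a library deposited again; this does not show separate cultures. Genes were named by a rule: BAP1, EZH2, FGFR1 to FGFR4 and PRC2; the 15 largest rises and falls averaging 1 or more in log2 CPM; the 5 largest gains and losses in CPM; up to 4 called members of each of 41 lists by smallest p; genes with 0 counts with DMSO; the 8 largest differences each way; and the 3 longest runs of neighbours. Further pathway members, and the HMGCS1 and STARD4 promoters, were named after their values were seen. The members and lists were chosen with earlier results of these data known. Promoters are RefSeq's, matched by symbol for 81.4% of tested protein-coding genes. Alternatives were RLE scaling, other count filters, DESeq2 1.42.0, limma-voom (limma 3.58.1), the H2731 libraries alone, a replicate block and leaving out each library. Values of some list members are not reported here; list counts include them.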

Additional observations from a re-analysis of the deposited data

Results flagged for a closer look

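The response to GSK126 differed between H2731 and H2810 for 2358 genes by the test of the difference itself, in edgeR's quasi-likelihood fit. Among genes averaging 1 or more in log2 CPM over the 8 libraries, the 8 largest differences toward H2731 (difference of log2 fold changes) were RGS4 5.21, COPZ2 4.62, ANXA10 2.55, RIPOR2 2.22, COL6A3 2.18, KLHL4 2.17, IL18 2.08 and PRUNE2 1.96. The first 4 had few counts in H2731: RGS4, a regulator of G-protein signalling, had 0 and 0 with DMSO and 3 and 4 with GSK126, COPZ2 0 and 0 against 4 and 2, ANXA10 1 and 1 against 6 and 9, and RIPOR2 3 and 2 against 10 and 7. Their fitted differences depend on the prior count, and their H2731 calls were lost when single libraries were left out, as were those of COL6A3 and IL18. KLHL4 and PRUNE2 kept theirs.

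The 8 largest differences toward H2810 were ABCA1 -3.93, ARHGEF4 -3.35, GPC4 -2.90, PLXNB3 -2.86, GPX3 -2.79, ERVFRD-1 -2.66, PSG3 -2.64 and IGFN1 -2.29. GPC4 rose in H2731 (0.37) and PLXNB3, a semaphorin receptor, fell there (-0.57). ARHGEF4, GPX3, ERVFRD-1, PSG3 and IGFN1 were not called in H2731, though IGFN1 was called higher there with no filter (log2 fold change 0.15, adjusted p = 0.00936) and without DMSO replicate 2 (0.28, adjusted p = 0.015). In the H2810 DMSO libraries ARHGEF4, GPC4, PLXNB3, GPX3 and PSG3 were each below 0.12 CPM, so their folds there start from a few counts.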

How the results depend on the processing

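DESeq2 called 2123 genes in H2731, 1391 higher and 732 lower, and 1401 differences between the lines. Leaving out 1 library at a time gave 2338 to 3185 genes called, 1492 to 1792 higher, 846 to 1393 lower, and 1688 to 2269 differences; the lone library of a group is then assumed to vary like the others. The other alternatives moved these counts by less than 1.5 times. The share of calls that were higher was 55.8%, 57.0% with RLE scaling and 65.5% by DESeq2. Same-numbered libraries deviated together weakly (correlation 0.0869 in H2731 and 0.151 in H2810), and the labels do not pair them; a replicate block called 4348 genes, among them EZH1 as lower (log2 fold change -0.17, adjusted p = 0.0426), which made 2 PRC2 falls instead of 1, and VIM.

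Genes that changed sign were uncalled in the reported fit. Leaving out 1 library at a time gave log2 fold changes of -0.31 to 0.15 for FGFR2, -0.0076 to 0.041 for EED, -0.26 to 0.028 for ARHGEF4, -0.036 to 0.10 for GPX3, -0.76 to 0.44 for ERVFRD-1, -0.011 to 0.072 for PMVK, -0.37 to 0.0034 for WT1, -0.088 to 0.031 for MSLN and -0.033 to 0.019 for BNC1, which was at 0.0046 with no filter. The cause was not tested. Over all named genes and alternatives, 139 values kept their direction but lost their call.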

Other observations

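Of the retinoid genes 4 of 16 rose and 2 fell, with 2 rises without DMSO replicate 1 and 1 fall without DMSO replicate 1, GSK126 replicate 1 or GSK126 replicate 2, or by DESeq2. RDH10, which makes retinal from retinol, went from 17.7 and 17.6 to 28.7 and 25.9 CPM (log2 fold change 0.63), and the retinoid X receptor RXRA fell by 0.28, from 238 and 227 to 195 and 187 CPM. RARRES2, the chemerin gene, went from 3.78 and 4.05 to 7.27 and 6.91 CPM (0.86). RDH10 rose by 1.26 in H2810, and the difference of -0.63 ± 0.08 was called (adjusted p = 7.43e-06, edgeR).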
